A study of Mus musculus with 2 samples.

Results

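Hi-C loops were read here from the side of their anchors. The subject is the set of 5 kb bins that anchor contacts in both directions, and it held 125 of the 8264 anchor bins of the wild-type list (1.51%, 95% interval 1.26 to 1.80). A bin entered when it was the right-hand anchor of at least 1 enriched pixel, so that it contacts a bin to its left, and the left-hand anchor of at least 1 other pixel, so that it contacts a bin to its right. Left means the lower coordinate. A pixel is a pair of 5 kb bins of the same chromosome whose contact count was called above its surroundings. The bins were chosen by their called pixels in the WT list, so their WT pixels and counts are a description. The list of the mutant library was not used for the choice.

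The study mapped chromatin contacts by Hi-C, in which DNA fragments that are neighbours in the nucleus are joined and read as pairs, in sorted primary hair matrix keratinocytes from mice on postnatal day 4.5. Hair matrix cells proliferate in the follicle bulb and give rise to the hair shaft and its inner sheath. There was 1 library from wild-type mice (WT) and 1 from Tet2/Tet3 double knockout mice carrying Krt14-Cre (DKO), in which the Krt14 promoter of basal keratinocytes drives the recombinase. TET2 and TET3 oxidise methylated cytosine. With no replicate no test could be made, and what differs between the lists cannot be told apart from what differs between these 2 libraries. Intervals are exact 95% intervals for counting error alone, and they treat bins as independent. Contacts do not measure transcripts, so no marker checks the cell type here.

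In the loop extrusion model, cohesin enlarges a loop of chromatin until it meets CTCF bound in an orientation that faces the loop. An anchor with contacts to both sides can therefore lie where a loop domain ends and the next begins, and clusters of CTCF sites of opposite orientation are known at such borders. CTCF binding is known to be sensitive to methylation of its motif at some sites, and promoters, many of them rich in CpG, can anchor contacts as well.

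A RefSeq transcription start lay in 28 of the both-direction bins. The 5 stretches printed next are the 250 bases before such starts, from RefSeq on GRCm38.p6, 5′ to 3′ on the strand of the gene. They are shown because they hold the matches to the core of the CTCF motif and show bins with both directions, the left alone or no pixel in the DKO list. The core of the CTCF motif, a degenerate motif given here by its name, was searched on both strands, and capitals mark a match. Mycn and Gm30470 lie in bins that kept both directions in DKO, Ets2 in a bin that kept its left direction, and Adprhl2 and Gm16740 in bins with no DKO pixel.
Mycn, a MYC family transcription factor gene, chr12:12941837-12942086, minus strand: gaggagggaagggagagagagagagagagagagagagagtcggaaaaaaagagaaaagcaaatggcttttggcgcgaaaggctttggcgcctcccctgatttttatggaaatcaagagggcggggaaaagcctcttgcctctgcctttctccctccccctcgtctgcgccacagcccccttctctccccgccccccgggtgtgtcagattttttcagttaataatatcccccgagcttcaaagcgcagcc
Gm30470, a predicted gene, chr11:79224435-79224684, plus strand: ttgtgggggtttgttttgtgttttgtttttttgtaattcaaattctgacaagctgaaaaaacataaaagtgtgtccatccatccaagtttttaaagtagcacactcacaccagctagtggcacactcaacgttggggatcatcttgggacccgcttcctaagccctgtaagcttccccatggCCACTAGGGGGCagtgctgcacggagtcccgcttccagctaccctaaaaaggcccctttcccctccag
Ets2, an ETS family transcription factor gene, chr16:95702157-95702406, plus strand: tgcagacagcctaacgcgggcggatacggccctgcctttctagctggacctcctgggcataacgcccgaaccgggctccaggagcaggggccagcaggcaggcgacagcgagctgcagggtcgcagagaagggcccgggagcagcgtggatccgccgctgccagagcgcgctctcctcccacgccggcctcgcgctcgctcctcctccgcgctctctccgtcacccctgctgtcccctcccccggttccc
Adprhl2, an ADP-ribose hydrolase gene, chr4:126321704-126321953, minus strand: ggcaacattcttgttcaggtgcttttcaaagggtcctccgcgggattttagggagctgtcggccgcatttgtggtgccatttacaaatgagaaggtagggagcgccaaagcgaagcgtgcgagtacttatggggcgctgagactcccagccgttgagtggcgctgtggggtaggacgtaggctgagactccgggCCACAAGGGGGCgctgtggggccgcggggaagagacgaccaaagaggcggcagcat
Gm16740, a predicted gene, chr3:95217207-95217456, plus strand: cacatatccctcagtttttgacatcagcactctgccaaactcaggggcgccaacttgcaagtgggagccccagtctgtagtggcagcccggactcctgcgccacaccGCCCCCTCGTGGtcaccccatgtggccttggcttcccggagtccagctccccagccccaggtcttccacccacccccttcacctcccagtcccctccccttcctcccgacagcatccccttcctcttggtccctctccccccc

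These 3 matches were the only ones among 35 promoter windows of 300 bases (250 before and 50 after the start) that lay in both-direction bins, a share of 8.57% (1.80 to 23.1). The match lay on the strand of the gene at Gm30470 and Adprhl2 and on the opposite strand at Gm16740. Of all 32851 windows 3.36% held a match, and of the 1772 windows in bins with contacts in a single direction 7.45% (6.27 to 8.77). The share in both-direction bins thus lay inside the interval of the other anchor bins, at 35 windows. These windows lie in 28 bins and some overlap, as at Gm34022, while the interval treats them as independent. No match says only that these letters are absent from the window, and the rest of each 5 kb bin was not searched. The median number of CpG dinucleotides per window was 18 in both-direction and in one-direction bins, against 7 in all windows.

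Right-going anchors lay just to the right of left-going anchors far more often than just to the left, and the both-direction bins are the pairs at distance 0. For every left-going anchor bin of the WT list the right-going anchor bins nearby were counted, leaving out pairs of the same loop. There were 125 pairs at 0 kb, which are the both-direction bins, then 189 (163 to 218) with the right-going bin 5 kb further right and 221 (193 to 252) at 10 kb. With the right-going bin to the left, so that loops cross, there were 26 pairs at 5 kb (17.0 to 38.1) and 6 at 10 kb (2.20 to 13.1). Over 10 to 25 kb the WT list held 802 abutting pairs (747 to 859) and 20 crossing pairs (12.2 to 30.9). Pairs just outside the rule were therefore more numerous on the abutting side and fewer on the crossing side.

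The DKO list had the same order of pairs, with 537 abutting (493 to 584) and 32 crossing (21.9 to 45.2) over 10 to 25 kb, 100 pairs at 0 kb and 157 at 10 kb (133 to 184). With the right-going bin to the left, pairs stayed at 3 to 9 per distance from 10 to 35 kb in WT and numbered 22 at 40 kb. Pixels spanned at least 35 kb in both lists. From 35 kb on, such pairs can therefore also be nested or separate loops, and whether they cross was not checked. Over 5 to 100 kb the WT list held 2698 pairs with the right-going bin to the right and 480 with it to the left. The DKO list held 1850 and 479. Leaving out pairs of the same loop lowered counts only with the right-going bin to the left, from 278 to 6 at 35 kb and from 246 to 42 at 100 kb in WT. Before that step the left side held more pairs there than the right, which had 125 at 35 kb and 104 at 100 kb. The contrast in the totals over 5 to 100 kb therefore depends on that step. After it, pairs with the right-going bin to the left were about as many in both lists. Those with it to the right were fewer in the shorter DKO list (4872 pixels against 5811 in WT). Whether the pixel caller's use of neighbouring pixels shapes this order was not tested.

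**Figure D1:**
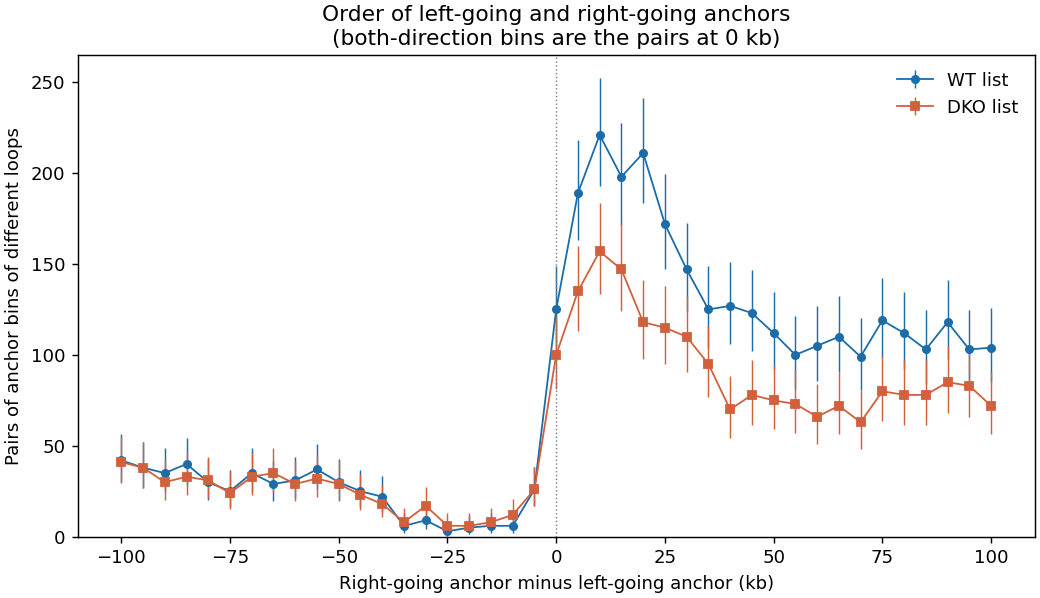
Number of pairs of a left-going and a right-going anchor bin of different loops (y axis) by the distance from the left-going to the right-going bin in kb (x axis), for the WT list (blue circles) and the DKO list (orange squares), with exact 95% Poisson intervals. Pairs with the right-going bin to the left lie at negative distances. The curves pass 125 and 100 pairs at 0 kb and peak at 10 kb with 221 and 157 pairs.

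The 125 bins formed 120 separate places, 5 of them runs of 2 touching bins, on 19 chromosomes. Chromosome 11 held 18 of its 866 anchor bins (2.08%, 1.24 to 3.27) and chromosome 2 held 15 of 665 (2.26%, 1.27 to 3.69). Chromosome 4 held 14 of 575 (2.43%, 1.34 to 4.05) and chromosome 8 held 1 of 388 (0.258%, 0.0065 to 1.43). None of the 52 anchor bins of chromosome X was among them (0 to 6.85%). The share over all anchor bins was 1.51%, which lies inside each of these intervals but that of chromosome 8. They took part in 349 WT pixels (6.01% of the list) and 246 loops, a loop being pixels joined where both anchors lie within 20 kb. In 118 bins the contacts belonged to 2 loops and in 7 to 3. Only 3 pixels joined a both-direction bin to another. The smallest possible membership, 1 pixel on each side, made up 65 of the 125 bins, and 16 bins had at least 2 pixels on each side.

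Contacts to the left and to the right had similar median spans and counts as groups. The median span was 100 kb for 186 left pixels (interval of the median 85 to 120, lowest 35, highest 1075) and 95 kb for 166 right pixels (85 to 115, lowest 35, highest 835). It was 120 kb for the 5462 other WT pixels (115 to 120). Median observed counts were 19 contacts on each side against 18 elsewhere. Median enrichment, the observed count divided by the count expected from the donut-shaped surroundings, was 5.04 on the left, 4.86 on the right and 5.12 elsewhere. Within a bin the longer of the strongest left and right contacts spanned a median of 1.75 times the shorter, and the higher count was a median of 1.27 times the lower. The left contact had more counts in 57 bins and the right contact in 56, with 12 ties. The left contact was the longer in 69 bins and the right contact in 49, with 7 equal.

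Of the 16 bins with at least 2 pixels on each side, the 10 with the highest summed WT counts, 1 per run of touching bins, are described next. The highest sum was in a bin inside Sp2, a zinc finger transcription factor gene (chromosome 11, 96975001 to 96980000). Its left pixels had 22 and 19 contacts, to bins with ends of Cdk5rap3 and Prr15l, and its right pixels had 31 and 52, to bins with ends of Sp6 and Scrn2. In DKO only right contacts were listed, 55 to the same bin at Scrn2 and 26 to the next. The bin beside Sparc, which encodes a secreted matrix glycoprotein (chromosome 11, 55385001 to 55390000), had 4 left pixels of 15 to 18 contacts and right pixels of 22 and 29 in WT. In DKO it had left pixels of 15 and 20 and a right pixel of 23, which ended at Atox1, a copper chaperone gene.

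A bin on chromosome 7 (139300001 to 139305000) had no protein-coding gene end within 5 kb. All 5 of its pixels were listed in both libraries, with 20, 28, 15, 23 and 28 contacts in WT and 20, 32, 14, 24 and 28 in DKO, from left to right. A bin inside Rgs3, a regulator of G protein signalling (chromosome 4, 62695001 to 62700000), had left pixels of 23, 22 and 16 and right pixels of 24 and 25 in WT. Its DKO left pixels had 15 and 31 contacts and its right pixels 17, 20 and 21. Only the farther left partner, at 140 kb, holds an end of Rgs3 itself.

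The bin on chromosome 2 at 32485001 to 32490000 joined bins at Ptges2 to the left and at Fam102a to the right. Its 4 WT pixels had 24, 19, 20 and 34 contacts, and all 4 were listed in DKO with 22, 21, 18 and 22, beside another of 23 at Dpm2. Another bin of that chromosome (172995001 to 173000000), within 5 kb of Rae1, an mRNA export factor gene, and of the meiotic gene Spo11, kept both directions in DKO. Its left contact over 165 kb had 26 contacts in WT and 27 in DKO, and its right contact at Ctcfl, a testis-expressed relative of CTCF, had 15 and 17. The strongest right contact in WT, of 26 over 85 kb, was not listed in DKO. The summed counts of the bin were 109 in WT and 74 in DKO. Further bins of this kind lay at Oaf on chromosome 9 and, without a gene end within 5 kb, on chromosome 6 (50805001 to 50810000) and chromosome 2 (173185001 to 173190000). All 3 kept both directions in DKO.

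The last of these 10 bins had no pixel in the DKO list. It lies inside Shroom3, which encodes an actin-binding protein of epithelial cell shape (chromosome 5, 92725001 to 92730000). In WT it had left contacts of 18 at Ccdc158 and 16 at the lower-coordinate end of Shroom3, and right contacts of 29, 15 and 16 over 225, 235 and 245 kb. The highest of them stood at 6.46 times the expected count (4.33 to 9.28). No DKO pixel had an anchor within 10 kb of this bin. It was 1 of 19 of the 125 bins without any DKO anchor that close, and of these 19 it had the most WT pixels. A DKO anchor lay that close for 84.8% of the 125 bins and for 68.2% of all WT anchor bins. For one-direction bins with at least 2 pixels the share was 89.8%. After the Shroom3 bin, the next of the 19 were bins at Ptprs on chromosome 17 (13 contacts on the left, 25 on the stronger right pixel) and at Fabp12 on chromosome 3 (18 and 18). Then came the bin at Slco4a1 on chromosome 2 (12 and 19) and a bin on chromosome 2 starting at 180215001 (26 and 21).

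**Figure D2:**
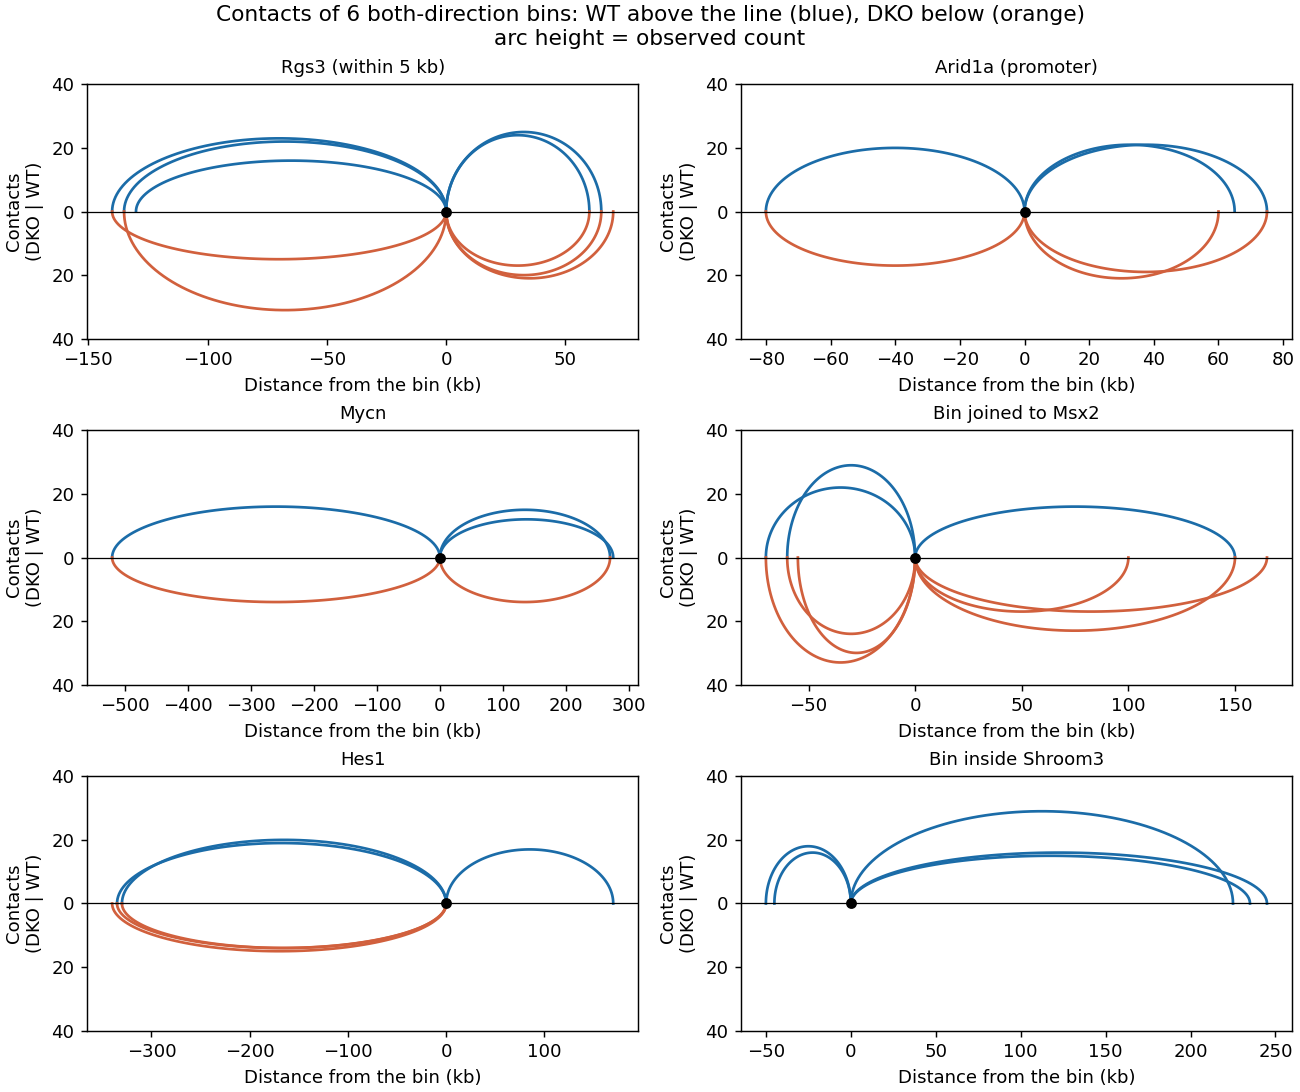
Contacts of 6 both-direction bins, with distance from the bin in kb on the x axis and the observed count as the height of each arc on the y axis; WT pixels are drawn above the line in blue and DKO pixels below it in orange. The Rgs3, Arid1a, Mycn and Msx2 panels have arcs to both sides in both lists, the Hes1 panel has no right arc in DKO, and the Shroom3 panel has no arc in DKO.

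Of the 125 bins, 30 had contacts in both directions in DKO at the same bin (24.0%, 16.8 to 32.5), 36 only to the left, 20 only to the right and 39 had no pixel. As background, 0.944% of all WT anchor bins were both-direction in DKO. An anchor of any kind in DKO was found for 86 of the 125 (68.8%, 59.9 to 76.8), against a background of 45.7% of all WT anchor bins. That background is mostly of bins with a single pixel. Among the 2287 one-direction bins with at least 2 pixels, the number every both-direction bin has by its rule, 76.3% were a DKO anchor (74.5 to 78.0). When a DKO anchor within 10 kb was accepted, 62 of the 125 bins had both directions, 25 the left alone, 19 the right alone and 19 neither. Accepted in the same way, 5.52% of all WT anchor bins were both-direction in DKO, and 68.2% had a DKO anchor of any kind.

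The number of pixels on a side went with being listed again, and at an equal number the sides of both-direction bins were listed about as often as those of one-direction bins. With 1 pixel, 57 of 174 sides were found in DKO in the same bin and direction (32.8%, 25.8 to 40.3), against 32.5% of one-direction bins (31.3 to 33.7). With 2 pixels it was 41 of 55 sides (74.5%, 61.0 to 85.3) against 71.7% (69.5 to 73.9). With 3 or more pixels it was 18 of 21 (85.7%, 63.7 to 97.0) against 86.4% (83.6 to 89.0). The intervals overlapped at each number, which does not show that the shares are equal.

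**Figure D3:**
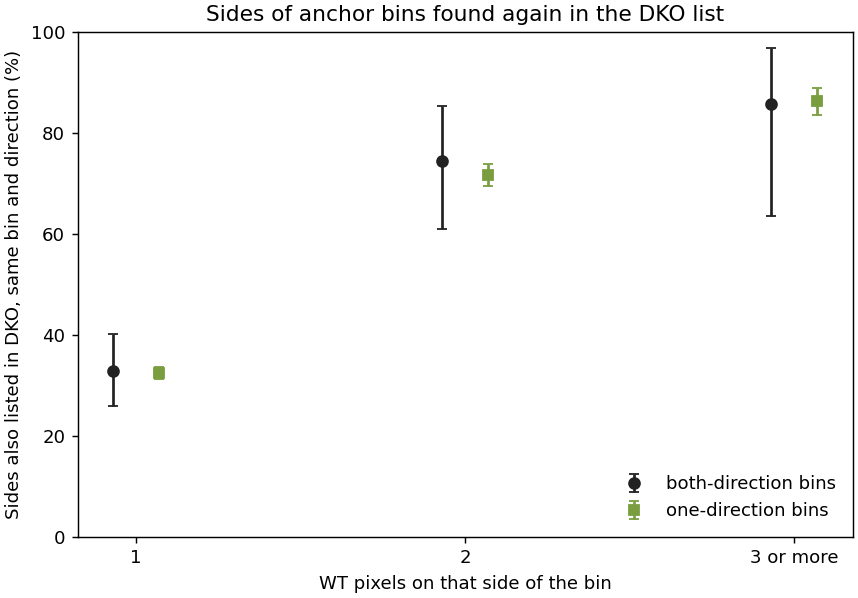
Percent of sides of WT anchor bins listed in DKO in the same bin and direction (y axis) by the number of WT pixels on that side (x axis), for both-direction bins (black circles) and one-direction bins (green squares), with exact 95% Clopper-Pearson intervals. The paired values lie at 32.8% and 32.5%, 74.5% and 71.7%, and 85.7% and 86.4%.

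Counted per bin the shares differed. The left and right pixels of a both-direction bin always belong to separate loops, whereas the 2 pixels of a one-direction bin did so in 190 of 1623 cases. With exactly 2 pixels, 31 of 65 both-direction bins were a DKO anchor (47.7%, 35.1 to 60.5) against 72.2% of 1623 one-direction bins (69.9 to 74.3). In the 190 with separate loops the share was 60.5% (53.2 to 67.5), and its interval overlaps that of the both-direction bins. The strongest pixel had a median of 20 contacts in these 65 bins and 21 in the 1623. With 3 or more pixels, 55 of 60 both-direction bins were a DKO anchor (91.7%, 81.6 to 97.2), and 27 of 60 had both directions there (45.0%, 32.1 to 58.4). Of the 65 bins with 1 pixel on each side 3 had both directions in DKO. The strongest WT pixel on the weaker side had a median of 20 contacts in the 30 bins that kept both directions, 16 in those that kept the left or the right alone, and 15 in those with no DKO pixel.

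The left side was kept in 66 bins (52.8%, 43.7 to 61.8) and the right side in 50 (40%, 31.3 to 49.1). Both shares are of the same 125 bins, of which 30 kept both sides, 36 the left alone and 20 the right alone. The backgrounds were 44.5% for all left-going and 44.9% for all right-going bins, and the interval of each side includes its background. There were also more bins with several left pixels and 1 right pixel (27) than the reverse (17). Anchor pairs just outside the rule, with the right-going bin 5, 10, 15, 20 or 25 kb beyond the left-going one, kept both anchors in DKO in 32.8%, 30.8%, 27.3%, 19.9% and 20.9% of pairs. The 24.0% at 0 kb lay within that range.

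**Figure D4:**
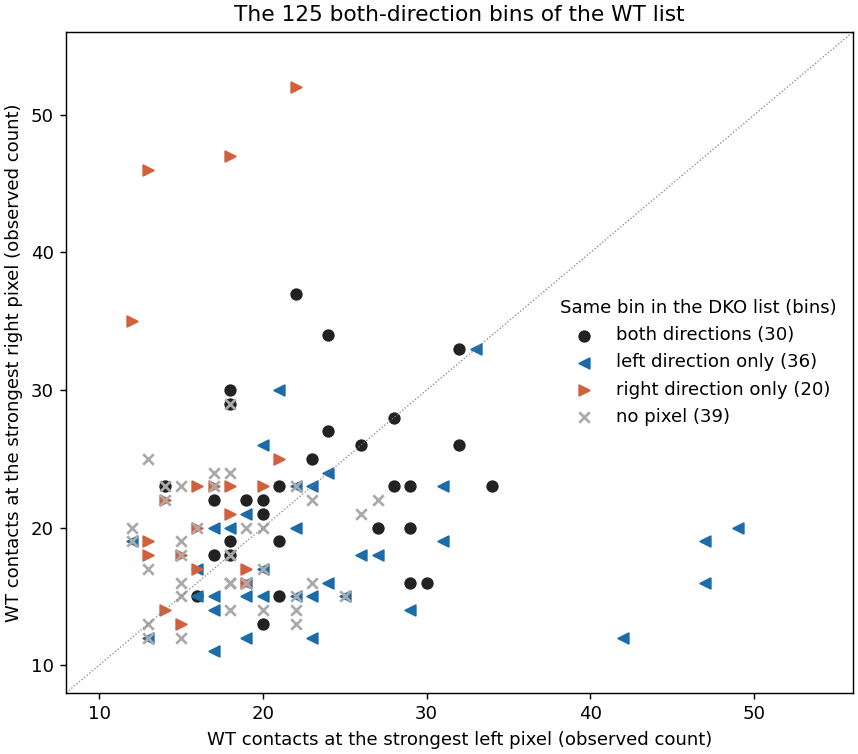
Each mark is 1 of the 125 both-direction bins, with the observed WT count of its strongest left pixel on the x axis and of its strongest right pixel on the y axis; the mark shows what the DKO list held in the same bin. The 30 bins that kept both directions (black circles) have a weaker-side median of 20 contacts and the 39 bins with no DKO pixel (grey crosses) 15.

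At contacts listed in both libraries, which had to pass the calling in each, the median strength was alike. There were 135 such pixels at both-direction bins, 38.7% of 349 (33.5 to 44.0, background 33.4% of all WT pixels). Their median enrichment was 5.39 in WT and 5.30 in DKO, and the median log2 DKO/WT ratio was −0.0049 (−0.06 to 0.08). Ratios past 1.5-fold were found at 10 of 135 (4 higher in DKO and 6 lower), a share of 7.41% beside a background of 8.81% of 1940 shared pixels. The interval of the ratio left out 1 at 31 of the 1940 shared pixels (1.60%), without adjustment for their number. Among the 135 it did so at 1 pixel (0.741%).

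That pixel was the highest of the 11 with at least 30 contacts in each library. It lay on chromosome 1 (132120001 to 132125000 and 132155001 to 132160000), with 31 contacts in WT and 48 in DKO (ratio 1.61, 1.01 to 2.62). The next joined a bin within 5 kb of Cct6a, a chaperonin subunit gene, and Psph, a serine synthesis gene, to the bin of Sumf2 on chromosome 5, with 36 and 40 contacts (1.26, 0.781 to 2.03). The third, at Ctdsp2 on chromosome 10, had 49 and 57 (1.16, 0.779 to 1.74). The lowest lay on chromosome 9 between Cish, an inhibitor of cytokine signalling, and Hemk1, with 46 and 39 contacts (0.839, 0.533 to 1.31). Those on chromosome 14 (20800001 and 20870001, 37 and 32 contacts) and at Cables2 on chromosome 2 (42 and 36) followed with 0.866 and 0.964. Except for the first, the intervals of these 6 ratios include 1.

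Listed genes, among them genes with known roles in the follicle or in growth, were looked up at both-direction bins. Of 333 listed genes found in the gene table, 4 had an annotated end in a WT both-direction bin (1.20%), against 36 of 21900 protein-coding genes (0.164%), and 58 against 2067 had one in any WT anchor bin. The lists were drawn up with earlier results known, and those counts are given without a reading. The 4 genes were Hes1, Hoxb2, Mycn and Col1a1.

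Mycn (chromosome 12, 12936093 to 12941836) had 16 left contacts in WT over 520 kb and 14 in DKO over the same span. Its right contacts numbered 15 over 270 kb in WT and 14 in DKO, and a second right pixel, of 12 contacts at Ddx1, was in the WT list only. Both directions were thus kept, with enrichments of 6.35 and 5.74 on the left and 6.47 and 5.58 on the right. The bin of Hes1, a repressor induced by NOTCH (chromosome 16, 30065357 to 30067796), had left contacts of 19 and 20 over 335 and 330 kb in WT, and 15, 14 and 14 in DKO. Its right contact of 17 over 170 kb was in the WT list alone.

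Hoxb2 (chromosome 11, 96351632 to 96354020) had 27 contacts to the left at Hoxb4 and 22 to the right in WT, at 2.92 and 2.80 times expected. No DKO pixel had an anchor in its bin, and a left-going one lay within 10 kb. Col1a1, the type I collagen gene and a fibroblast marker (chromosome 11, 94936224 to 94953042), had left pixels of 26, 32 and 34 contacts in WT and 20 and 19 in DKO. Its right pixel had 23 and 28. It was the only one of 18 dermal papilla and fibroblast markers in the set, and none of 11 melanocyte or 18 immune, endothelial and nerve markers was. Of the other lists, the set held an annotated end of none of 19 inner root sheath and hair keratins, 17 epidermal keratins or 33 hair follicle transcription factors. It also held no end of 37 WNT genes, 34 terminal differentiation and desmosome genes, 19 DNA methylation genes or 21 loop architecture genes. It held an end of 1 of 41 BMP, hedgehog, NOTCH and FGF genes, 1 of 39 HOX genes and 1 of 27 proliferation genes, as named. Genes that span a bin or lie at the far end of a contact are not in these counts. The both-direction bin on chromosome 11 starting at 103755001, for example, lies wholly inside Wnt9b. The share over all protein-coding genes was 0.164%, so a list of this length without a member says little.

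Further genes lay at the far end of a contact, had a start in the bin away from their annotated ends, or had an end in the bin without being on a list. They were chosen after their values were seen. The bin on chromosome 13 at 53530001 to 53535000 joined Msx2, a homeobox factor of the hair matrix, 60 kb to its left with 29 contacts in WT and 24 in DKO. It had 2 left and 1 right pixel in WT and 3 of each in DKO, where the right pixel over 150 kb had 23 contacts against 16 in WT (ratio of enrichments 1.46, 0.737 to 2.95). Runx1, a RUNT factor, has an annotated start in a both-direction bin (chromosome 16, 92695001 to 92700000). Its right contact over 595 kb had 16 contacts in WT and 14 in DKO, and its left contact of 19 over 75 kb was listed in WT alone. The start of Arid1a, a subunit of the BAF chromatin remodelling complex, lay in a bin of chromosome 4 that kept both directions. Its left contact to Pigv had 20 contacts in WT and 17 in DKO, and its right contact over 75 kb had 21 and 19. Acvr1, a type I receptor for BMP ligands, shares its bin with Upp2, and the bin had 18 left and 16 right contacts in WT and no DKO anchor within 10 kb.

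In the keratin clusters, a bin on chromosome 11 starting at 99460001 had left contacts of 22, 20 and 20 and right contacts of 12 and 15 over 830 and 835 kb in WT, and left contacts of 20, 27 and 18 alone in DKO, the last ending at Krt10. A right-going DKO anchor lay within 10 kb of it. A bin inside Krt78 on chromosome 15 starting at 101980001 kept left contacts over 655 kb (17 in WT, 16 in DKO) and 645 kb (12 and 20), and its right contacts of 20 and 17 towards Eif4b were not listed in DKO, where a right-going anchor lay within 10 kb. A further left contact ended at 465 kb in WT (12 contacts) and at 210 kb in DKO (15), in the bin near Krt72 that is both-direction in DKO.

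The let-7 genes Mirlet7c-2 and Mirlet7b, microRNAs known for restraining growth genes, lie within 5 kb of a both-direction bin of chromosome 15 (85710001 to 85715000). They are printed because they share their seed, bases 2 to 8, given here in capitals from RefSeq.
mmu-let-7c-5p: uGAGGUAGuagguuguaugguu
mmu-let-7b-5p: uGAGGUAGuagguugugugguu
That bin had left pixels of 21, 21, 27 and 30 contacts in WT over 115, 110, 105 and 100 kb. The last 3 were listed in DKO with 17, 16 and 24. The right contact over 155 kb had 16 in WT and 17 in DKO. Both directions were present in both lists.

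In 31 of the 125 bins (24.8%, 17.5 to 33.3) a further pixel joined the left partner to the right partner over the bin, each end within 10 kb, so that 3 loops close a triangle. These enclosing pixels do not have the bin as an anchor and took no part in the choice. They spanned 90 to 800 kb. The share was 10.8% of bins with 2 pixels (4.44 to 20.9) and 40% of bins with 3 or more (27.6 to 53.5). For pairs of anchors 5, 10, 15, 20 and 25 kb apart on the abutting side it was 20.1%, 16.7%, 11.1%, 9.95% and 9.30%, and so lower at each step away from the both-direction bins. The intervals at 0 and 5 kb overlap (14.6 to 26.5 at 5 kb), and those at 0 and 25 kb do not (5.41 to 14.7 at 25 kb). The DKO list had an enclosing pixel at 25 of its 100 both-direction bins (25%, 16.9 to 34.7). Of the 31 WT bins, 18 had the enclosing contact in DKO within 10 kb (58.1%, 39.1 to 75.5). The pixels anchored in the 125 bins were found in DKO that close in 70.4% of 186 left and 63.9% of 166 right pixels. Those shares are counted per pixel and not per bin. The share within 10 kb was not computed for all WT pixels, so the 58.1% has no background and is not read as high or low. The WT bins that kept both directions in DKO had an enclosing pixel in 13 of 30 cases (43.3%, 25.5 to 62.6), and those without a DKO pixel in 7 of 39 (17.9%, 7.54 to 33.5). These 2 groups also differed in WT pixels per bin, with medians of 3.5 and 2, and were not compared at an equal number. Mycn had 3 such pixels and the bin joined to Msx2 had 2.

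The DKO list held 100 both-direction bins of 7189 anchor bins (1.39%, 1.13 to 1.69). Of these, 30 were both-direction in WT, 23 had left contacts alone there, 25 right contacts alone and 22 had no WT pixel. A WT anchor of any kind was found for 78 of the 100 (78.0%, 68.6 to 85.7), against 52.5% of all DKO anchor bins. That background includes bins with a single pixel, whereas the 100 have at least 2 by the rule. The share for one-direction DKO bins with at least 2 pixels was not computed. The share that was both-direction in WT was 30% (21.2 to 39.98), against 1.20% of all DKO anchor bins. For 13 of the 100 no WT anchor lay within 10 kb. That share was not computed for all DKO anchor bins, so it has no background here.

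Of those 13, the bin with most pixels held an end of Slc7a5, a transporter of large neutral amino acids (chromosome 8, 121905001 to 121910000), with left contacts of 24, 22 and 24 and a right contact of 16. The next held an end of Gtpbp4, a ribosome assembly GTPase gene on chromosome 13, with 14 contacts on the left at Idi1 and right pixels of 13 and 16. A bin of chromosome 6 starting at 8645001 had 16 on its stronger left pixel and 13 on the right. The bin at the start of Cdh1, which encodes E-cadherin of epithelial junctions (chromosome 8, 106603350 to 106670247), had 27 contacts on each side, over 40 and 35 kb, at 2.94 (1.94 to 4.28) and 2.85 (1.88 to 4.14) times expected. A bin of chromosome 18 starting at 35870001 had 23 and 22. Of the listed genes, 2 lay within 5 kb of bins that were both-direction in DKO alone. The bin near Wnt3a, a WNT ligand gene, had 19 and 16 contacts, and the one near Krt72, a keratin of the inner root sheath, had 14 on the left and 19, 18 and 15 on the right.

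Ends of protein-coding genes lay in 29 of 125 WT both-direction bins (23.2%, 16.1 to 31.6) and in 22.6% of one-direction bins (21.7 to 23.6). In DKO the shares were 34 of 100 (34%, 24.8 to 44.2) and 23.9% (22.9 to 24.9), with intervals that just overlap. Outside chromosome 18, which the promoter table does not cover, transcription starts lay in 28 of 121 WT both-direction bins (23.1%, 16.0 to 31.7) against 16.7% of one-direction bins (15.9 to 17.6). The share was 20.8% (16.7 to 25.5) in the 346 one-direction bins at 2 or more separate loops. In DKO it was 33.3% (24.0 to 43.7) against 18.6% (17.7 to 19.6). Bins that were both-direction in both lists held a start in 5 of 30 cases (16.7%, 5.64 to 34.7), in WT alone in 23 of 91 (25.3%, 16.7 to 35.5) and in DKO alone in 27 of 66 (40.9%, 29.0 to 53.7). With at least 20 contacts per pixel the order in DKO turned around, to 2 of 23 both-direction bins (8.70%, 1.07 to 28.0) against 20.8% of one-direction bins. At an FDR, the expected share of false calls, under 0.01 the DKO shares were 21.1% and 18.4%.

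**Figure D5:**
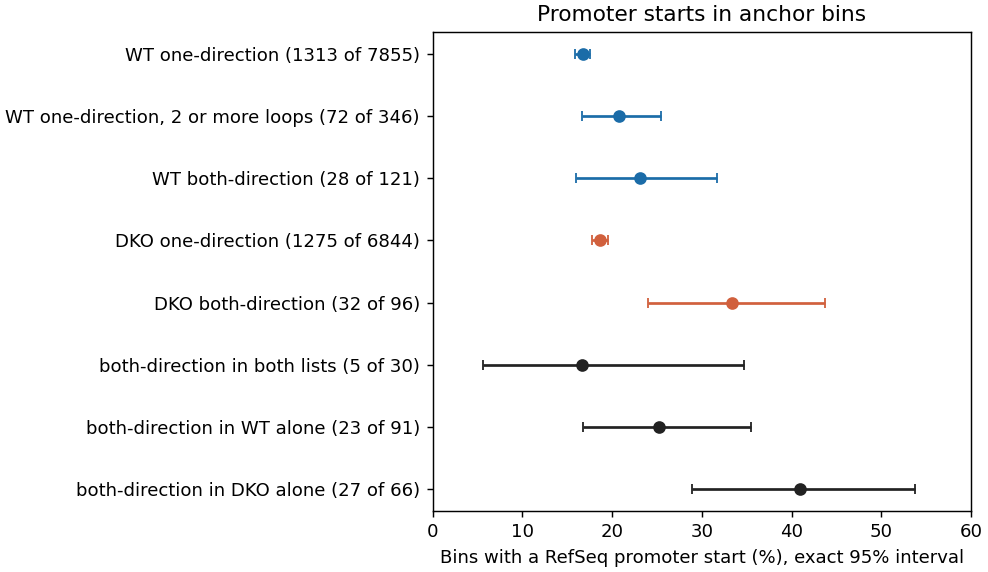
Percent of anchor bins that hold a RefSeq transcription start (x axis) in groups of bins of the WT list (blue), the DKO list (orange) and split by list membership (black), outside chromosome 18, with exact 95% Clopper-Pearson intervals and counts beside each name. Bins that are both-direction in DKO alone stand at 40.9% and those in both lists at 16.7%.

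In the 24 WT both-direction bins with starts on a single strand, the side of the gene body had the higher contact count in 16. The upstream side had the higher count in 7, and 1 was tied. Only the side was compared, and whether a contact ended in the gene was not counted. The side was not counted for other anchor bins, so whether this is particular to both-direction bins was not tested. The whole bin lay inside a protein-coding gene in 38 of 125 cases (30.4%, 22.5 to 39.3), against 37.8% of one-direction bins (36.8 to 38.9) and 30.6% of those at 2 or more separate loops (25.8 to 35.6).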

How the data were processed

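Hi-C data came from 1 WT and 1 Tet2/Tet3 DKO library of hair matrix keratinocytes. The deposited lists name juicer_tools 1.22.01 per the file headers; Juicer and GRCm38 (mm10) are named in the submitters' processing notes. Aligner, read filters and depth were not given in the sources used here. For each pixel the authors deposited an observed count, without normalisation, a signal expected from each of 4 neighbourhoods on the scale of those counts, a score for the class of expected counts, and a q-value (FDR) per neighbourhood. A pixel that is not listed was not called, which does not give its count.

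Both-direction bins were found in Python 3.11.15 with pandas 2.3.3 and SciPy 1.17.1, and the counting was tested on simulated data. Pixels were joined into loops by single linkage at 20 kb. Genes, promoters and microRNAs came from RefSeq on GRCm38.p6. Intervals are Poisson, Clopper-Pearson or conditional binomial. A called change meant 1.5-fold. The planned motif search over whole bins needs a genome and was not run.

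Members and the 13 gene lists were chosen with earlier results of these data known. Bins named were the 10 with the highest summed counts among those with at least 2 pixels per side, the 5 strongest in both lists, 5 lost, 5 gained, those at listed genes and the bins of 6 ranked pixels, and any further bin was picked with its values in view. Alternatives covered stricter calling, minimum counts, list length, loop peaks, matching distance and gene rules.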

Additional observations from a re-analysis of the deposited data

How the results depend on the processing

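No paired analysis was possible because only 1 library stands for each genotype and nothing was tested. Of 81 recomputed values, 45 stayed within their interval (counts within 1.5 times) and 36 moved beyond it. The values that moved are given for WT both-direction bins unless another group is named. At an FDR under 0.01 there were 30 bins in WT and 20 in DKO, and 80% of the WT bins and 74.2% of one-direction bins with several pixels were DKO anchors. There 40% of DKO bins were both-direction in WT, and 16.7% had an enclosing pixel. At 20 or more contacts there were 33 and 24 bins, 33.3% kept both directions, 45.8% of DKO bins did so in WT, 79.6% of the one-direction bins were anchors and 12.1% had an enclosing pixel. Median spans were then 75 kb left and 70 kb right, and the median log2 ratio at shared pixels was 0.0837. With loops placed at their highest pixel there were 65 and 58 bins. Of the WT bins 53.8% were DKO anchors, against 63.9% of one-direction bins, and 20.7% of DKO bins were both-direction in WT. The gene end share was 33.8% and the left span 75 kb. The WT list shortened to the DKO length moved the one-direction share to 79.2%. Matching within 1 bin gave 46.4% with both directions and 83.2% with any, against 88.7% for one-direction bins, and 54% for DKO bins in WT. Within 2 bins these were 49.6%, 84.8%, 89.8% and 55%. Gene ends within 5 kb gave 43.2% and all gene classes 36%. Chosen after seeing the data, one-direction bins at separate loops gave 73.3%, and exactly 2 pixels gave 47.7% against 72.2%. Abutting pairs over 10 to 25 kb outnumbered crossing ones under each of 4 alternatives, also added later, where pairs of the same loop were not left out. Counted so, they numbered 802 against 26 in WT and 537 against 39 in DKO, and at the stricter FDR 211 against 4 and 147 against 11.

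Of the WT bins, 65 rest on 1 pixel per side, and the median pixel of the set had 19 contacts, so counting error limits which sides are listed again. The sequencing depth of both libraries is unknown here. Every difference between the lists is without a replicate check.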

Other observations

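A chain of both-direction bins lay on chromosome 6. The bin at 50805001 to 50810000 had right contacts to bins starting at 50935001 (30 contacts in WT, 26 in DKO) and 51165001 (24 in WT, 17 in DKO, on expected counts of 1.27 and 1.29). In DKO the bin at 50935001 was itself both-direction, with 3 left and 2 right pixels, and in WT it had 3 left pixels and none to the right. A bin starting at 51170001 was both-direction in DKO alone, joined over 235 kb to 50935001 with 15 contacts and over 1045 and 1060 kb to bins with ends of Hoxa7 and Hoxa10 with 15 contacts each. Chromosome 6 held 7 WT and 13 DKO both-direction bins, 1.85% and 3.26% of its anchor bins. Chromosome 16 held 3 in WT and none of 211 anchor bins in DKO.

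A pair of both-direction bins on chromosome 5, starting at 129785001 and 129845001, was joined by a pixel over 60 kb. This pixel had 47 WT contacts at 35.9 times the expected count, and 42 DKO contacts at 36.7 times. Its expected count was low, 1.15 in DKO, which raises the ratio. The left bin holds ends of Psph and Cct6a, and the right bin ends of Cct6a and Sumf2. Beyond that pair, the bin at 129785001 had 18 contacts to the left and the bin at 129845001 had 16 to the right in WT, and neither outer contact was listed in DKO.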
